A study of Arabidopsis thaliana with 12 samples.

Results

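The evening complex, GIGANTEA, the ZEITLUPE family of F-box proteins and CHE belong to the Arabidopsis circadian clock, most of them to its evening side. Transcripts of the 9 genes for these proteins were followed in seedlings of 4 genotypes. The genes were taken by locus code, with no threshold on a measured value: ELF3 (AT2G25930), ELF4 (AT2G40080), LUX (AT3G46640), BOA (AT5G59570), GI (AT1G22770), FKF1 (AT1G68050), ZTL (AT5G57360), LKP2 (AT2G18915) and CHE (AT5G08330). They are 9 of the 27588 genes in the deposited table, all 9 passed the filter on low counts, and none was at 0 in any library.

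The evening complex joins the scaffold protein ELF3, the small protein ELF4 and a MYB-like DNA-binding factor, LUX or its close relative BOA, and represses morning clock genes and growth genes such as PIF4 around dusk and through the night. GIGANTEA is a large evening-phased protein that stabilises ZTL in blue light and acts with FKF1 to degrade CDF repressors of flowering. ZTL, FKF1 and LKP2 are blue-light receptors that serve as the substrate-binding part of SCF ubiquitin ligases, and ZTL marks the clock proteins TOC1 and PRR5 for degradation. CHE is a class I TCP factor that binds the CCA1 promoter, and the morning factors CCA1 and LHY in turn repress most evening genes through a promoter motif named the evening element.

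Whole seedlings were compared in 4 groups of 3 libraries, all labelled as ecotype Columbia 0. Col-0 was the wild type, cfh1 a mutant that the design text names cfh1-1, and the CFH1 decoy line carried a decoy construct whose promoter and sequence the labels do not give. Decoys used to study F-box proteins are in general such proteins expressed without the F-box, which hold their targets but do not hand them to the ligase. The last group was labelled PIF3 over-expression by genotype, although its titles speak of a pif3 mutant, and PIF3 is a growth-promoting factor that phytochromes remove in the light. Seedlings of every group had grown for 7 days in 12 h of light and 12 h of darkness, were then kept in constant red light, and were collected on day 12, at zeitgeber time 1 (in hours after the former dawn). Since all libraries come from that 1 time, a lasting change in level and a rhythm that runs early or late cannot be told apart. The labels do not say whether the 3 libraries of a group came from separate cultures, so the p-values speak of the variation among these libraries, which may be technical. In whole seedlings, fewer cells of a type and less RNA per cell cannot be told apart.

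The libraries held 21914394 to 34345088 estimated counts each, of which the 9 genes together had 6495 to 11335. Levels are given as CPM, read counts per library size scaled by the TMM method (a trimmed mean of log ratios between libraries), and changes as log2 fold changes from an edgeR fit with the standard error (SE) and a p-value adjusted over 21235 genes, with a threshold of 0.05. PIF3 transcripts stood at 348.2 to 363.1 CPM in the libraries labelled PIF3 over-expression and at 20.9 to 43.3 CPM in the other 9 libraries. CFH1 was not checked, because the sources used here do not pair the name with a locus. The decoy libraries stood apart from the rest: 74 genes with at least 1 CPM on average elsewhere had no count in any decoy library, against 11 such genes for each other group. Rank correlations between decoy libraries were 0.975 to 0.981, against up to 0.996 in Col-0, and decoy replicate 1 had the lowest total count and the lowest TMM factor (0.793). Whether the decoy line differs from Col-0 elsewhere in its genome was not tested. The 4 shoot markers (RBCS1A, LHCB1.1, LHCA1 and RCA) summed to 21805 to 23782 CPM in Col-0, 17447 to 27352 in cfh1, 32073 to 43272 in the decoy and 9784 to 16143 with PIF3 over-expression. The 4 root markers (PYK10, NRT2.1, COBL9 and EXPA7) summed to 2979 to 4093, 3231 to 4144, 5082 to 6777 and 3421 to 4400 CPM in the same order. Among the shoot markers, LHCB1.1 stood at 1898 to 2739 CPM in cfh1 and 2871 to 3117 in Col-0. LHCA1 stood at 1748 to 2029 and 2068 to 2168 CPM, so both lay below Col-0 in every cfh1 library. RBCS1A and RCA overlapped between these groups. PYK10 made up nearly all of the root sum. NRT2.1 was low but higher in the decoy, as PYK10 was. It stood at 0.344 to 0.927 CPM in Col-0, 1.21 to 3.26 in the decoy and 0.268 to 0.677 with PIF3 over-expression. The root hair genes did not follow PYK10. EXPA7 stood at 12.1 to 14.4 CPM in Col-0, 1.92 to 7.18 in the decoy and 18.8 to 27.4 with PIF3 over-expression. COBL9 stood at 8.77 to 11.3, 3.66 to 14.0 and 12.9 to 21.0 CPM in these groups. Markers of flower organs summed to at most 1.16 CPM and those of seed storage to at most 2.68 CPM in any library, with SESA1 at 0 in every Col-0, cfh1 and decoy library. These are transcript levels, and tissue make-up itself was not measured. The part of these marker differences in the results was not tested.

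The genes differed in the motifs upstream of them. The evening element (AAAATATCT, searched on both strands) was found in the 1000 bases upstream of the annotated transcript start of 5 of the 9 genes, and 7.24% of 27443 promoters of that length hold it. GI had 3 copies, FKF1 had 2, and ELF4, LUX and BOA had 1 each, whereas ELF3, ZTL, LKP2 and CHE had 0. The copies of GI, FKF1, LUX and BOA are printed here with 10 bases on either side, read on the strand of the gene, because CCA1 and LHY are known to bind evening genes through this motif. Capitals mark the match, which reads as the reverse complement where it lies on the other strand, and the numbers in the names give the distance of its first base from the transcript start.
GI site 809: gtaagattttAAAATATCTtaaaagatgt
GI site 777: aggcccatttAGATATTTTctcaacgggc
GI site 591: agctcccctcAAAATATCTgtggacatat
FKF1 site 373: gcgtttcacaAAAATATCTattatttgac
FKF1 site 186: tgagtaggctAGATATTTTctcggaatat
LUX site 53: tagaagatctAAAATATCTagctaactcg
BOA site 43: tgcgggtaaaAGATATTTTagattatcta
The copies of LUX and BOA lay closest to their transcript starts, and that of GI named 809 the farthest away. A match is a description of the letters, and none of these files measured binding.

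LUX and BOA encode close relatives, and FKF1 passed the test in the decoy as well as the PIF3 over-expression line. The 250 bases before the transcript start are shown for these 3 genes. They were read 5′ to 3′ on the strand of the gene from the RefSeq genome TAIR10.1, with motif matches in capitals. LUX lies on chromosome 3 (chr3:17182792-17183041, plus strand), and its window held a G-box (CACGTG) and the evening element.
LUX upstream: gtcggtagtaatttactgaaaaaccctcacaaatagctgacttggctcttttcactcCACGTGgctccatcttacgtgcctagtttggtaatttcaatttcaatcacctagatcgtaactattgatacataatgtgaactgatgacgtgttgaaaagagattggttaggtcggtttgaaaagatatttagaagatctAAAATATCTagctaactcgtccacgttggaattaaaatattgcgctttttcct
BOA lies on chromosome 5 (chr5:24003638-24003887, plus strand), and its window held the same pair of motifs, with the evening element on the other strand.
BOA upstream: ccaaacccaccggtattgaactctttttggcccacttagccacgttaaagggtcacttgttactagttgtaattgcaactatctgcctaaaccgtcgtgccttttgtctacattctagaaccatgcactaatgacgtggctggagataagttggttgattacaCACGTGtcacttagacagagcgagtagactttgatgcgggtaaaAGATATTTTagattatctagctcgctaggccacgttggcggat
FKF1 lies on chromosome 1 (chr1:25508389-25508638, plus strand), with 1 evening element on the other strand.
FKF1 upstream: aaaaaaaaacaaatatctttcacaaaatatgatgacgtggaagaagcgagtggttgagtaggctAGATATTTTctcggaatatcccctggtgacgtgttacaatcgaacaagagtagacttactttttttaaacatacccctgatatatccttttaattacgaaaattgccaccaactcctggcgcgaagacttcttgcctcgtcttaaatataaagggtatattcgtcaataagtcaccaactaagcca
In windows of 250 bases, 2.36% of promoters hold the evening element and 6.49% the G-box, which PIF3 and its relatives are known to bind.

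Other motifs were searched in the same windows. The LUX site (GATACG or GATTCG), the core that LUX recognises, was found within 1000 bases of ELF3 (2 matches), ELF4, LUX, GI and LKP2 (1 each), and 39.8% of all promoters of that length hold it. The G-box was found upstream of LUX and BOA alone among the 9, and 14.8% of promoters hold it. The CCA1-binding site (AAAAATCT), a relative of the evening element that does not overlap it here, was found once upstream of each of BOA, LKP2 and CHE, against 21.1% of promoters. The class I TCP site (GTGGGNCC), of the kind CHE can bind, was found in none of the 9 windows, and 2.46% of promoters hold it. ZTL had no match to any of these motifs.

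**Figure D1:**
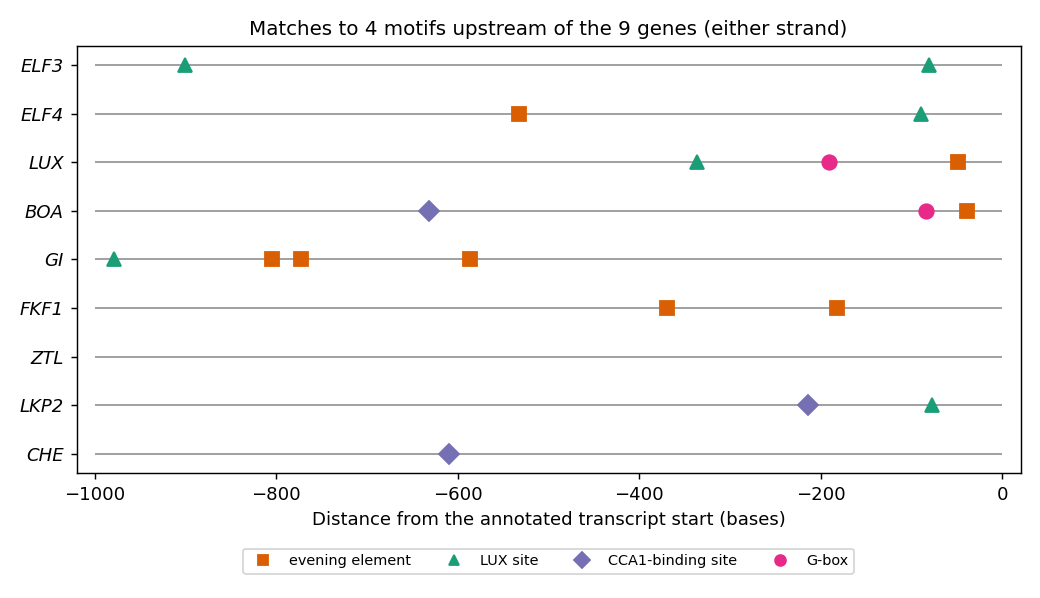
Motif matches upstream of the 9 genes. Each line is the 1000 bases before a gene's annotated transcript start (x axis, distance in bases), and symbols mark evening elements (squares), LUX sites (triangles), CCA1-binding sites (diamonds) and G-boxes (circles) on either strand. Evening elements lie upstream of GI, FKF1, ELF4, LUX and BOA.

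In Col-0 the 9 transcripts differed widely in abundance at the 1 time sampled, zeitgeber time 1. Their order at other times of day was not measured. Levels between genes are compared per length, as CPM per kb of the gene's first annotated transcript. ELF4 was the most abundant at 48.7 ± 1.75 CPM per kb (SD, n = 3, as for all values after a ± sign). LUX at 25.2 ± 1.33 and ELF3 at 24.3 ± 0.63 CPM per kb followed, and their libraries overlapped. CHE stood at 18.1 ± 0.94 and ZTL at 15.6 ± 1.66 CPM per kb, and these also overlapped. LKP2 at 7.36 ± 1.01 and GI at 6.63 ± 0.278 CPM per kb could not be ordered beyond their spread. BOA at 5.22 ± 0.464 CPM per kb lay below GI without overlap, and FKF1 was the least abundant at 1.88 ± 0.444 CPM per kb. The places of LUX and BOA depend on the length used: per kb of all annotated exons, an alternative chosen after the values were seen, LUX stood at 11.9 ± 0.627 CPM per kb, below ELF3, CHE and ZTL, and BOA at 2.92 ± 0.260. In the decoy line this order was compressed at the top: ELF4 fell to 24.8 ± 3.46 CPM per kb, into the range of LUX (30.5 ± 7.68), CHE (28.5 ± 4.18) and ZTL (24.7 ± 4.40). GI was there at 13.0 ± 2.32 CPM per kb and LKP2 at 11.2 ± 2.82. FKF1 remained the lowest in all 4 genotypes, between 1.88 CPM per kb in Col-0 and 3.21 with PIF3 over-expression.

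**Figure D2:**
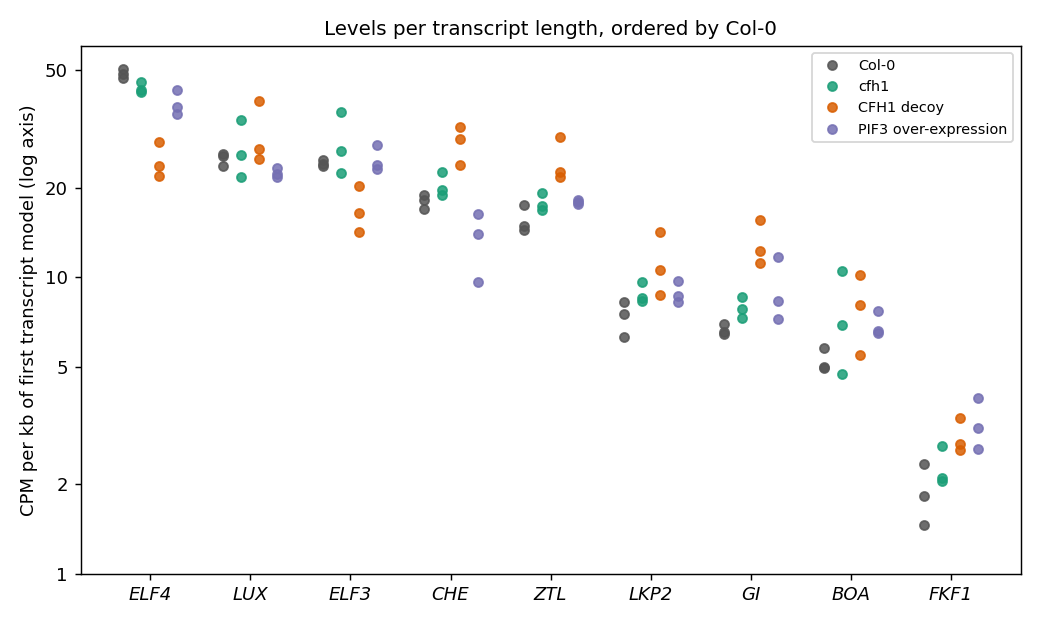
Transcript levels of the 9 genes per kb of their first annotated transcript (y axis, CPM per kb on a log axis), with 1 point per library and colours for the 4 genotypes, ordered by the Col-0 mean. At the 1 time sampled, ELF4 stands above all others in Col-0 at 48.7 CPM per kb, and falls among LUX, CHE and ZTL in the decoy. LUX and BOA stand lower per kb of all their annotated exons.

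The cfh1 mutant addresses what a mutation in CFH1 does to these transcripts, and none of the 9 passed the test there. Over all genes, 0.0141% were called higher and 0.0565% lower in cfh1, or 3 and 12 genes (6 and 12 with library totals alone), so few calls were made anywhere. At an unadjusted p under 0.05, edgeR gave 447 genes higher and 517 lower, of which 0 are among the 9, and DESeq2 called 7 genes higher and 31 lower, again none of the 9. The log2 fold changes were 0.23 for ELF3, -0.16 for ELF4, 0.11 for LUX, 0.50 for BOA, 0.25 for GI, 0.29 for FKF1, 0.19 for ZTL, 0.26 for LKP2 and 0.18 for CHE, with edgeR adjusted p-values of 0.969 to 0.976. The median over the 9 was 0.23, against 0.00 over all genes. The 95% interval of the widest of these, for BOA, ran from -0.06 to 1.06, and that of the narrowest, for ELF4, from -0.40 to 0.09. For some of the 9 genes the cfh1 libraries differed among themselves more than those of Col-0: ELF3 stood at 73.2, 61.9 and 99.4 CPM and BOA at 14.1, 9.69 and 21.5 CPM in replicates 1, 2 and 3. For others they did not. The highest library over the lowest was 1.32 in cfh1 and 1.60 in Col-0 for FKF1, 1.14 and 1.21 for ZTL, 1.15 and 1.32 for LKP2, and 1.08 and 1.07 for ELF4. Among the cfh1 libraries, replicate 3 had the highest ELF3, ELF4, LUX, BOA, FKF1 and CHE. It also had the lowest CCA1, at 103.7 CPM against 134.7 and 140.9, and the lowest LHY, at 197.2 against 270.2 and 264.0.

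The CFH1 decoy line is labelled as carrying a decoy of CFH1, whose effect on CFH1 was not checked, and here 7 of the 9 genes passed the test. GI, FKF1, ZTL, LKP2 and CHE rose, ELF3 and ELF4 fell, and LUX and BOA did not pass. Within the evening complex, the scaffold and its small partner were lower while the DNA-binding members did not pass, and GI and all 3 ZEITLUPE family genes were higher. The decoy line changed much else: 19.6% of all genes were called higher and 21.2% lower, beside 5 and 2 of the 9. The median log2 fold change of the 9 was 0.60, against 0.00 over all genes. With library totals in place of TMM factors, the median of all genes moved to -0.25, the calls over all genes from 4163 higher and 4504 lower to 1720 and 6929, and the calls among the 9 to 2 higher and 2 lower.

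**Figure D3:**
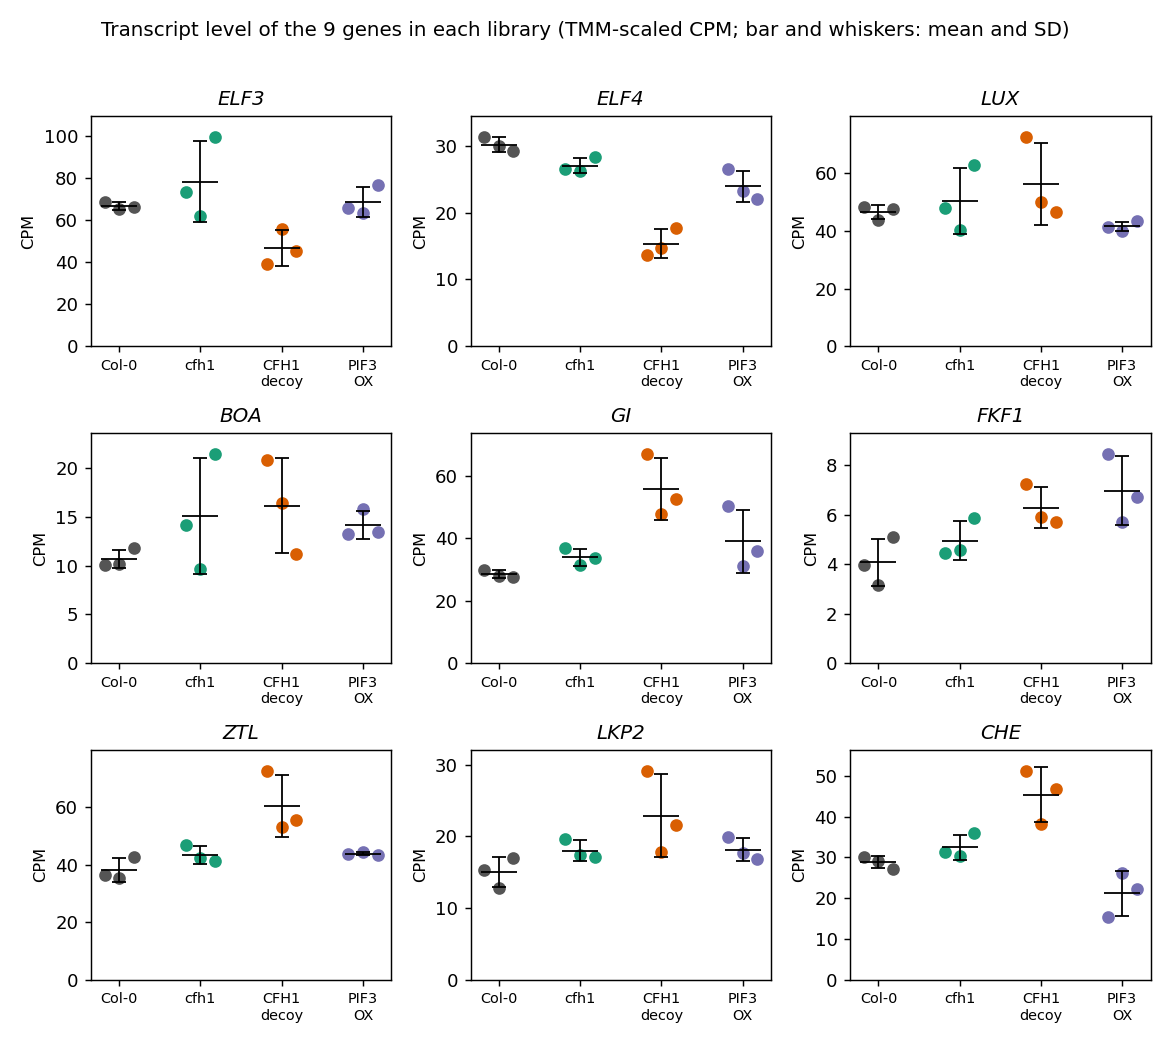
Level of each of the 9 genes in every library (y axis, TMM-scaled CPM, from 0), with 1 point per library in replicate order, a bar at the group mean and whiskers of 1 SD. ELF4 is lower and GI, ZTL and CHE are higher in each decoy library than in any Col-0 library, and decoy replicate 1 (left orange point) is the highest of the decoy libraries for 7 of the 9 genes.

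ELF4, the small protein that helps ELF3 gather in the nucleus, had the largest change of the evening complex genes. The gene (chr2:16734294-16734953, minus strand, TAIR10.1 as for all coordinates) stood at 31.3, 30.0 and 29.1 CPM in Col-0, 26.5, 26.2 and 28.3 in cfh1, 13.6, 14.7 and 17.7 in the decoy and 26.5, 23.2 and 22.0 with PIF3 over-expression. The 3 decoy libraries were the lowest of all 12, and Col-0 was above every library of the other lines. In the decoy ELF4 fell by 0.97 on the log2 scale (SE 0.116, edgeR adjusted p 4.89e-05), or to 15.3 ± 2.14 from 30.1 ± 1.09 CPM, and it passed in every alternative fit run. It was also lower in the decoy than in cfh1 (-0.81, adjusted p 0.000233) and than with PIF3 over-expression (-0.64, adjusted p 0.000792).

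ELF3, the scaffold that binds phytochrome B and ELF4, fell less. The gene (chr2:11058944-11063324, plus strand) stood at 68.5, 65.1 and 66.4 CPM in Col-0, 39.1, 56.0 and 45.2 in the decoy and 65.8, 63.5 and 76.8 with PIF3 over-expression. All decoy libraries lay below all others, with replicate 1 the lowest. The log2 fold change in the decoy against Col-0 was -0.51 (SE 0.168, edgeR adjusted p 0.0284). This call rested on single libraries: it ended when any single Col-0 library (-0.49, -0.53 and -0.51 without replicates 1, 2 and 3) or decoy replicate 1 (-0.41) or 3 (-0.50) was left out. Against cfh1 the difference was -0.74 (adjusted p 0.00535) and against PIF3 over-expression -0.55 (adjusted p 0.0179), and the latter call was lost without decoy replicate 1 (-0.44) or PIF3 over-expression replicate 3 (-0.47).

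LUX and BOA, the DNA-binding members, did not pass in any line against Col-0. LUX (chr3:17183042-17186959, plus strand) stood at 48.2, 43.7 and 47.5 CPM in Col-0, 47.8, 40.3 and 62.7 in cfh1, 72.5, 49.9 and 46.4 in the decoy and 41.2, 40.1 and 43.2 with PIF3 over-expression. Decoy replicate 1 was far above the other 2 decoy libraries, which lay near Col-0, and the log2 fold change was 0.27 (95% interval -0.10 to 0.65, edgeR adjusted p 0.227). BOA (chr5:24003888-24007844, plus strand), the scarcer of the pair, stood at 10.1, 10.2 and 11.8 CPM in Col-0, 20.9, 16.5 and 11.2 in the decoy and 13.3, 15.8 and 13.5 with PIF3 over-expression. Its decoy libraries overlapped Col-0, at a log2 fold change of 0.59 (95% interval 0.03 to 1.15, adjusted p 0.0845), and it passed without decoy replicate 3 (0.79). The annotated exons of LUX and BOA overlap a gene on the opposite strand over 698 and 1679 bases. Within their first annotated transcripts, the overlap was 0 bases for LUX and 159 for BOA. The sources used here do not give how the counting treated strand, so reads of each pair cannot be told apart. The partner genes had 995.5 and 49 counts in all 12 libraries together.

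GI had the largest rise in the decoy. The gene (chr1:8061751-8067790, plus strand) stood at 29.9, 28.0 and 27.7 CPM in Col-0, 36.8, 31.4 and 33.7 in cfh1, 67.1, 47.9 and 52.7 in the decoy and 50.3, 31.0 and 35.8 with PIF3 over-expression. Every decoy library was above every Col-0 and cfh1 library, and PIF3 over-expression replicate 1 reached into the decoy range. The decoy mean was 1.96 times that of Col-0, a log2 fold change of 0.97 (SE 0.168, edgeR adjusted p 0.000796), and it passed in every alternative fit run against Col-0, at 0.70 to 1.06. The decoy was also above cfh1 (0.72, adjusted p 0.00618) and above PIF3 over-expression (0.52, adjusted p 0.024). The last of these was lost without decoy replicate 1 (0.36), without PIF3 over-expression replicate 2 (0.37) or 3 (0.46), when the 2 groups were fitted by themselves (0.52) and with library totals alone (0.16).

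The 3 F-box receptor genes rose together in the decoy. ZTL (chr5:23241320-23244590, plus strand) stood at 36.3, 35.3 and 42.8 CPM in Col-0, 46.9, 42.3 and 41.1 in cfh1, 72.7, 53.0 and 55.5 in the decoy and 43.8, 44.5 and 43.2 with PIF3 over-expression. The decoy libraries were the highest 3 of the 12, and the log2 fold change was 0.66 (SE 0.126, edgeR adjusted p 0.00141), which passed in every alternative fit run against Col-0. ZTL was also higher in the decoy than in cfh1 (0.47, adjusted p 0.012) and than with PIF3 over-expression (0.46, adjusted p 0.01), calls that library totals alone ended (0.23 and 0.11). The former was also lost when the 2 groups were fitted by themselves (0.47).

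LKP2 (chr2:8194512-8197483, minus strand), the closest relative of ZTL, had 15.4, 12.8 and 16.9 CPM in Col-0, 19.7, 17.4 and 17.1 in cfh1, 29.2, 17.8 and 21.6 in the decoy and 19.9, 17.7 and 16.8 with PIF3 over-expression. The decoy libraries lay above Col-0 but reached into the ranges of cfh1 and PIF3 over-expression. The log2 fold change against Col-0 was 0.60 (SE 0.167, edgeR adjusted p 0.013). The call ended when decoy replicate 1 (0.38) or Col-0 replicate 2 (0.50) was left out, with library totals alone (0.33) and when the 2 groups were fitted by themselves (0.58). The annotated exons of LKP2 overlap a non-coding RNA gene on the opposite strand over 370 bases, 161 of them in its first annotated transcript. That gene has no row among the counts, so its reads cannot be told apart from those of LKP2.

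FKF1, the receptor that acts with GI on the CDF repressors, is the gene that passed in both lines. The gene (chr1:25508639-25510907, plus strand) stood at 3.96, 3.17 and 5.08 CPM in Col-0, 4.45, 4.56 and 5.86 in cfh1, 7.25, 5.92 and 5.69 in the decoy and 8.46, 5.73 and 6.72 with PIF3 over-expression, from 108 to 300 counts a library. Every library of both lines was above every Col-0 library. In the decoy the log2 fold change was 0.62 (SE 0.214, edgeR adjusted p 0.0335), and leaving out Col-0 replicate 1 (0.60) or 2 (0.47) or decoy replicate 1 (0.51), using library totals alone (0.37) or fitting the 2 groups alone (0.61) ended the call. FKF1 shares 21 bases of exon with a gene on the opposite strand that had 28107 counts over the 12 libraries. Of its exonic stretches of 50 bases, 0.87% also occur elsewhere in the genome.

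CHE, the TCP factor at the CCA1 promoter, rose in the decoy and had its lowest values with PIF3 over-expression. The gene (chr5:2680401-2681993, plus strand) stood at 30.1, 29.1 and 27.2 CPM in Col-0, 31.3, 30.3 and 36.0 in cfh1, 51.3, 38.2 and 46.8 in the decoy and 15.3, 26.1 and 22.3 with PIF3 over-expression. The decoy libraries were the 3 highest and the PIF3 over-expression libraries the 3 lowest of all 12. Against Col-0 the decoy had a log2 fold change of 0.66 (SE 0.169, edgeR adjusted p 0.00863), which did not pass with library totals alone (0.39). The decoy and PIF3 over-expression differed by 1.1 (SE 0.171, adjusted p 0.00027), the largest difference between any 2 lines among the 9 genes.

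With PIF3 over-expression, the question is what an excess of PIF3 does to the same genes, and FKF1 alone passed. Over all genes, 6% were called higher and 7.32% lower, against 1 and 0 of the 9, or 1275 and 1554 genes (1818 and 1140 with library totals alone), and the median log2 fold change of the 9 was 0.20. FKF1 rose to 6.97 ± 1.39 from 4.07 ± 0.963 CPM (log2 fold change 0.78, SE 0.211, edgeR adjusted p 0.0287). The call was lost without Col-0 replicate 1 (0.76) or 2 (0.63) and without PIF3 over-expression replicate 1 (0.62) or 3 (0.80). GI stood at 0.45 (adjusted p 0.0965), with all 3 libraries above Col-0. It passed without PIF3 over-expression replicate 2 (0.59) and with library totals alone (0.54). ELF4 stood at -0.33 (adjusted p 0.0697) and passed by DESeq2 (-0.34), when the 2 groups were fitted by themselves (-0.33) and without the decoy libraries (-0.32). CHE stood at -0.44 (adjusted p 0.111) and passed without PIF3 over-expression replicate 2 (-0.62). ELF3 (0.04), LUX (-0.16), BOA (0.41), ZTL (0.20) and LKP2 (0.27) did not pass, and BOA did so in a fit of the 2 groups alone (0.41). The decoy and PIF3 over-expression comparisons share their Col-0 libraries, so their values stand side by side without a test of how alike they are.

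**Figure D4:**
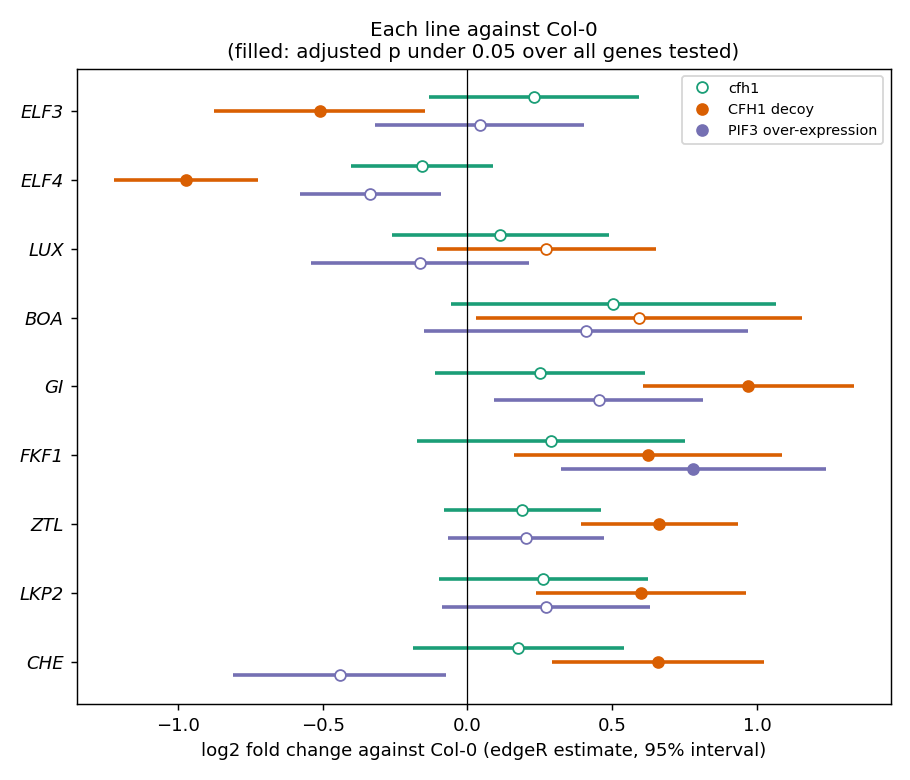
Log2 fold change of each gene against Col-0 (x axis) in cfh1, the CFH1 decoy and PIF3 over-expression, with 95% intervals from the edgeR fit; filled points have an adjusted p under 0.05. ELF3 and ELF4 lie left of 0 in the decoy and GI, FKF1, ZTL, LKP2 and CHE right of it, whereas FKF1 alone is filled with PIF3 over-expression.

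The lines were also set against each other. Between the decoy and cfh1, GI, ZTL and CHE were higher and ELF3 and ELF4 lower, where 15% of all genes were called higher and 18.2% lower (3191 and 3864 genes, or 1304 and 6039 with library totals alone). CHE differed by 0.48 (edgeR adjusted p 0.044), and this call was lost when any single cfh1 library (0.43 to 0.56) or decoy replicate 1 (0.39) or 3 (0.46) was left out, and with library totals alone (0.24). LKP2 passed there without decoy replicate 2 (0.49). Between PIF3 over-expression and cfh1, 5.7% of all genes were called higher and 7.18% lower (1211 and 1524 genes, or 1664 and 904 with library totals alone). Of the 9 genes, CHE was lower by this test (-0.62, adjusted p 0.0319). That call was lost when any single cfh1 library (-0.54 to -0.66) or PIF3 over-expression replicate 1 (-0.43) or 3 (-0.65) was left out, when the 2 groups were fitted by themselves (-0.60) and with library totals alone (-0.52). Between the decoy and PIF3 over-expression, GI, ZTL and CHE were higher and ELF3 and ELF4 lower, where 20.5% of all genes were called higher and 22.7% lower (4363 and 4827 genes, or 1973 and 9120 with library totals alone). LUX differed there by 0.44 (adjusted p 0.059) without overlap between the libraries, and passed without decoy replicate 2 (0.51) or 3 (0.55) and by DESeq2 (0.45). LKP2 passed there without decoy replicate 2 (0.48). FKF1 differed by -0.15, or -0.61 to 0.30 as a 95% interval.

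The partners of these genes in the clock were looked at through lists, whose counts stand beside the share of all genes called and are not read as particular to a list. Of 12 other core clock genes, 0 rose and 4 fell in the decoy (19.6% and 21.2% of all genes), with a median log2 fold change of -0.39. The morning factor CCA1 stood at 148.4, 168.0 and 146.6 CPM in Col-0 and at 48.6, 85.7 and 95.7 in the decoy, where decoy replicate 1, the highest decoy library for 7 of the 9 genes, was the lowest. CCA1 fell by 1.01 (edgeR adjusted p 0.00248), LHY by 0.75 (adjusted p 0.00544) and RVE8, an activator of evening genes, by 0.56 (adjusted p 0.00955). PRR3, an evening relative of TOC1, fell by 0.63 (adjusted p 0.0496), a call that was lost without any single Col-0 library (-0.55 to -0.68) and without decoy replicate 1 (-0.43) or 3 (-0.57). TOC1, the target of ZTL, did not pass at 0.13 (adjusted p 0.508), and PRR5, PRR7 and PRR9 stood at 0.53, 0.38 and -0.57 without passing. With PIF3 over-expression 0 of the 12 rose and 1 fell (6% and 7.32% of all genes). This was LNK2, a coactivator of the dawn factors, at -0.87 (adjusted p 0.0118), and its call ended without Col-0 replicate 2 (-0.79) or PIF3 over-expression replicate 1 (-0.71). In cfh1 none of the 12 passed.

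Of 4 known targets of the evening complex, PIF4 passed as higher in both lines, where 19.6% of all genes (decoy) and 6% (PIF3 over-expression) were called higher. PIF4, a growth-promoting factor, stood at 33.1, 35.9 and 44.2 CPM in Col-0, 41.7, 33.1 and 47.7 in cfh1, 88.7, 75.3 and 84.0 in the decoy and 53.8, 57.9 and 58.8 with PIF3 over-expression. The decoy was highest and PIF3 over-expression lay between it and Col-0 without overlap. PIF4 rose by 1.13 in the decoy (edgeR adjusted p 7.64e-05) and by 0.59 with PIF3 over-expression (adjusted p 0.0167). The latter was lost without Col-0 replicate 1 (0.51) or 2 (0.56) or PIF3 over-expression replicate 3 (0.57). PIF5, its close relative, stood at 0.34 in the decoy (adjusted p 0.051). It passed there with RLE size factors, by DESeq2 and without Col-0 replicate 3 or decoy replicate 2. In the main edgeR fit, PRR7 and PRR9, the repressors of CCA1 and LHY, did not pass in any line against Col-0. Of the 4 targets, leaving out decoy replicate 1 gave 2 higher in the decoy, and leaving out decoy replicate 3 gave 1 higher and 1 lower. Over all genes, the former fit called 3039 higher and 3743 lower of 21455, and the latter 3640 and 4361 of 21397.

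Of 8 partners of the evening complex, 1 rose and 3 fell in the decoy, against 19.6% and 21.2% of all genes. TZP, a zinc finger protein that binds phytochrome B, fell by 0.73 (edgeR adjusted p 0.00589) and AT2G16365 by 1.28 (adjusted p 0.000115). COP1, a ubiquitin ligase that targets ELF3, fell by 0.46 (adjusted p 0.0196), a call that ended without Col-0 replicate 3 (-0.40). AT3G13670 rose by 0.41 (adjusted p 0.013), a call that ended without Col-0 replicate 1 (0.39) or 2 (0.37). The phytochrome B gene PHYB did not pass. None of the 8 passed with PIF3 over-expression or in cfh1.

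In the photoperiod pathway downstream of GI and FKF1, 0 of 6 genes rose and 3 fell in the decoy, where 19.6% and 21.2% of all genes did. These were the CDF genes, whose proteins repress flowering and are the substrates of FKF1. CDF1 stood at 31.2, 29.3 and 28.7 CPM in Col-0 and 17.5, 20.4 and 22.0 in the decoy, without overlap, and fell by 0.57 (edgeR adjusted p 0.0029). CDF2 fell by 0.86 (adjusted p 0.000621) and CDF3 by 0.41 (adjusted p 0.0311). The CDF3 call ended when replicate 2 (-0.35) or 3 (-0.41) of Col-0 was left out, or replicate 1 (-0.35) or 2 (-0.33) of the decoy. The gene CO, which they repress, stood at -0.58 without passing, and passed without decoy replicate 2 (-0.75) and with library totals alone (-0.82). With PIF3 over-expression 1 of the 6 rose and 0 fell (6% and 7.32% of all genes). FT, the flowering signal, had 35, 12 and 27 counts against 1, 1 and 3 in Col-0, a log2 fold change of 3.67 (SE 0.84, adjusted p 0.0139). The FT call ended without Col-0 replicate 1 (3.38) or 2 (3.39) or PIF3 over-expression replicate 1 (3.34), and a stricter filter removed the gene from the test.

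Of 7 genes for ZTL targets and partners in the SCF ligase (TOC1, PRR5, ASK1, ASK2, CUL1, RBX1 and HSP90.2), 0 passed in any line against Col-0. By the other tools and fits run, DESeq2 and a fit of the 2 groups alone each called 1 higher in the decoy. Of 6 relatives of the 9 genes, 5 were tested, and 0 rose and 3 fell in the decoy (all genes, 19.6% and 21.2%). ELF4-L1 fell by 0.96 (edgeR adjusted p 0.0112), ELF4-L2 by 0.36 (adjusted p 0.0298) and MYBC1, a LUX-like MYB factor, by 0.72 (adjusted p 0.00324). The ELF4-L2 call was lost without any single Col-0 library (-0.32 to -0.39) and without decoy replicate 3 (-0.29).

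Of 9 class I TCP factors and LWD genes, the company of CHE, 4 rose and 1 fell in the decoy, beside 19.6% and 21.2% of all genes. TCP15 rose by 0.64 (edgeR adjusted p 0.002) and LWD1, a WD-repeat clock protein, by 0.72 (adjusted p 0.000181), and TCP23 fell by 0.61 (adjusted p 0.0076). TCP14 (0.34, adjusted p 0.0396) and TCP22 (0.36, adjusted p 0.0497) passed narrowly, and both calls were lost without any single Col-0 library and without decoy replicate 1 (0.24 and 0.21). They were also lost without decoy replicate 3 for TCP14 (0.36) and replicate 2 for TCP22 (0.38). With PIF3 over-expression 2 of the 9 rose and 0 fell (6% and 7.32% of all genes): TCP14 by 0.62 (adjusted p 0.00711) and TCP15 by 0.44 (adjusted p 0.0373). The TCP15 call there was lost when any single Col-0 or PIF3 over-expression library was left out (0.35 to 0.51). In cfh1 none of these lists had a gene that passed.

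**Figure D5:**
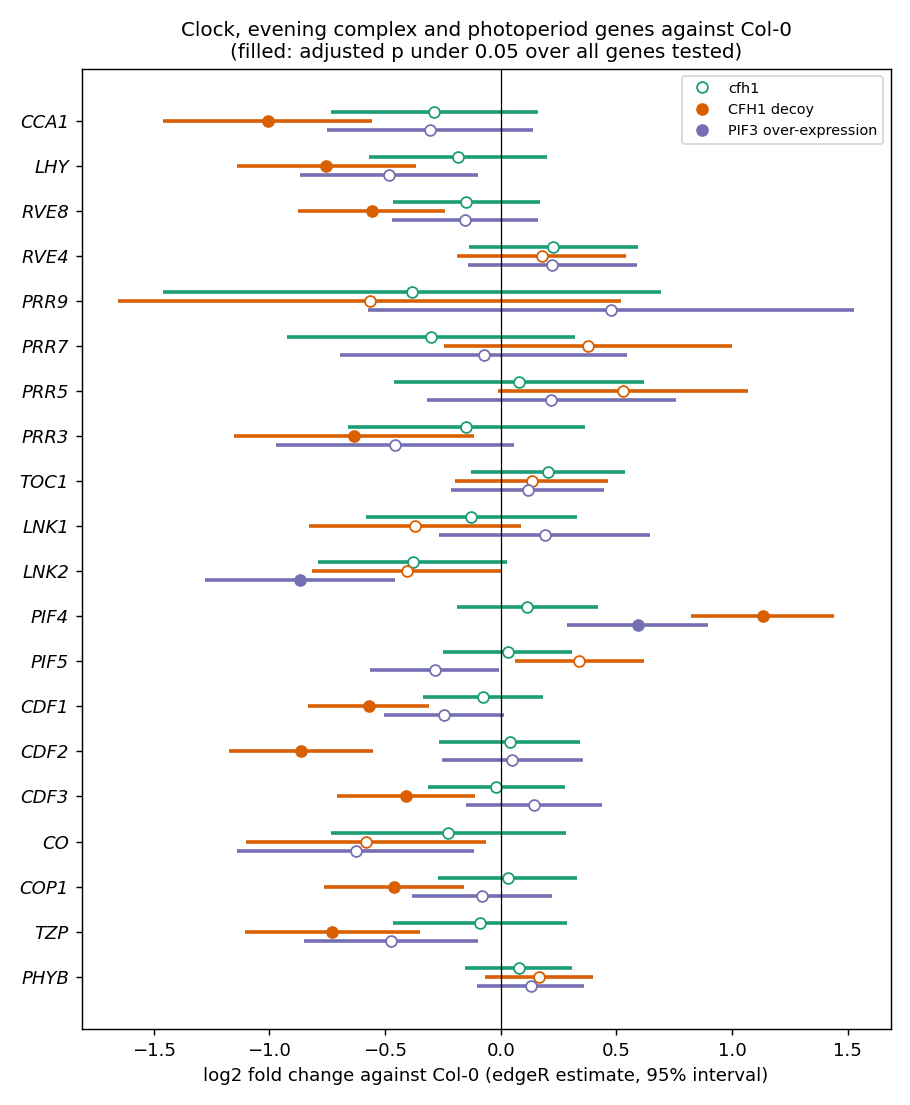
Log2 fold change against Col-0 (x axis) of 20 clock, evening complex and photoperiod genes in cfh1, the CFH1 decoy and PIF3 over-expression, with 95% intervals from the edgeR fit; filled points have an adjusted p under 0.05. CCA1, LHY, RVE8, PRR3, the 3 CDF genes, COP1 and TZP are filled left of 0 in the decoy, and PIF4 is filled right of 0 in both the decoy and the PIF3 line.

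For each of the 7 genes that passed in a line against Col-0, the 2 genes with the most similar profile over the 12 libraries were looked up among 8216 genes with a symbol. Likeness is the root mean square difference of log2 CPM after centring each gene, so 0 is identical, and the profiles share their libraries. ZTL had the closest matches, DCP5 at 0.0579 and RHC2A at 0.0626. LKP2 followed with NBR1 at 0.0593 and EXO84B at 0.0735. The nearest profile to GI was RIP1 at 0.106, then MTO2 at 0.144. ELF4 was nearest to IBM1 (0.106) and MBD10 (0.117), ELF3 to MEE44 (0.120) and JOSL (0.125), CHE to ZFP8 (0.106) and LUL4 (0.111), and FKF1 to SBE2.1 (0.129) and HGL1 (0.139). The SD of log2 CPM of the 7 genes themselves ran from 0.270 for ZTL to 0.445 for CHE.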

How the data were processed

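Messenger RNA of whole seedlings was measured in 12 libraries (4 genotypes with 3 each), grouped by the genotype labels. Estimated counts (expected counts) for 27588 genes were deposited by the authors, and of these values 41.57% were not whole at a tolerance of 1e-09. Trimmomatic 0.39, HISAT2 2.1.0 and StringTie 2.1.2 and the build TAIR10 are named in the submitters' processing notes, without their settings. Such estimates divide reads between overlapping models, so values of overlapping genes are less certain.

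Counts were rounded to whole numbers and analysed in R 4.3.3 with edgeR 4.0.16: filterByExpr by group (minimum count 10, leaving 21235 genes), TMM factors, and quasi-likelihood tests from 1 fit of all 12 libraries with 1 mean per genotype (8 residual degrees of freedom; common BCV, the biological coefficient of variation, 0.172). Tests were 2-sided, with Benjamini-Hochberg adjustment over all genes tested in each of 6 comparisons. Each library holds 21914394 to 34345088 counts, so a gene at 1 CPM rests on about 20 to 35 counts, and values of low genes such as FKF1 carry more counting error. The pipeline was tested on simulated data. No library pair was identical.

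The members and lists were chosen with earlier results of these data known, so counts over them are descriptions. All 9 genes are named. Of the lists, drawn from general knowledge, up to 5 genes per list and line that passed are named, and CCA1, LHY, TOC1, PRR5, PRR7, PRR9, PIF4, PIF5, CDF1 and PIF3 could always be named. CO, PHYB and the members of the SCF list are named although they did not pass, and were chosen after their values were seen. Alternatives were DESeq2 1.42.0, RLE size factors, library totals alone, a stricter filter (1 CPM in 3 libraries) or no filter, the 2 groups alone, no decoy libraries, a replicate block and leaving out each library. The length of all annotated exons, for levels per kb, was added after the values were seen. Symbols, transcript models and upstream sequences were taken from RefSeq (TAIR10.1), where 27390 of the table's loci were found. There, LUX is PCL1 and CHE is TCP11 with CHE as a synonym. Upstream windows end at the base before the annotated transcript start. Intervals of log2 fold changes are 95% intervals of the edgeR fit.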

Additional observations from a re-analysis of the deposited data

How the results depend on the processing

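Of the alternative values for the 9 genes over the 6 comparisons, 652 kept their direction and their side of the threshold, 44 no longer passed, 14 newly passed and 19 changed sign. The 652 include values that passed in neither fit, whereas the 44 come only from values that passed in the main fit. These pooled counts therefore do not measure how stable the calls were. RLE size factors, no filter and a stricter filter changed no call. The decoy against Col-0 had 5 genes higher, 2 with library totals alone and 3 when the 2 groups were fitted by themselves, and 3 to 6 when single libraries were left out, with 1 to 2 lower. PIF3 over-expression against Col-0 had 1 higher, but 2 with library totals alone and 2 in a fit of the 2 groups, and 0 to 2 without single libraries. It had 0 lower, but 1 by DESeq2, 1 in a fit of the 2 groups, 1 without the decoy libraries, and 0 to 1 without single libraries. The decoy against cfh1 had 3 higher, but 1 with library totals alone, 2 when the 2 groups were fitted by themselves, and 2 to 4 without single libraries. PIF3 over-expression against cfh1 had 0 lower with library totals alone, 0 in a fit of the 2 groups, and 0 to 1 without single libraries. The decoy against PIF3 over-expression had 3 higher, but 1 with library totals alone, 2 in a fit of the 2 groups, 4 by DESeq2, 2 to 5 without single libraries, and 1 to 2 lower. Library totals take no account of composition, and gave a median over all genes of -0.25, -0.23 and -0.36 in the decoy against Col-0, cfh1 and PIF3 over-expression, and of 0.10 in PIF3 over-expression against cfh1. The cause of the other changes was not tested. Over all genes, the 2 groups alone gave 1930 higher and 2349 lower with PIF3 over-expression, against 1275 and 1554, and 1903 and 2522 in the decoy against cfh1, against 3191 and 3864. Without Col-0 replicate 1 or 2 or its own replicate 1, PIF3 over-expression against Col-0 had 413 to 543 higher and 461 to 659 lower.

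Of the lists in the decoy against Col-0, every alternative gave counts higher and lower of 0 to 1 and 3 to 5 for other core clock genes, 1 to 2 and 0 to 1 for evening complex targets, 0 to 1 and 2 to 5 for partners, 0 and 2 to 4 for photoperiod genes, 0 to 1 and 2 to 3 for relatives, and 2 to 4 and 1 to 2 for TCP and LWD genes. With PIF3 over-expression they were 0 to 1 and 0 to 3 for core clock genes, 0 to 1 and 0 for targets and for photoperiod genes, 0 and 0 to 2 for partners, and 1 to 3 and 0 for TCP and LWD genes.

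Values that changed sign did not pass on either side. With library totals alone these were, in the decoy against cfh1, LUX (-0.10) and BOA (-0.16), and, against PIF3 over-expression, BOA (-0.16) and LKP2 (-0.029). Without single libraries, LUX ran from -0.078 to 0.24 in cfh1 and ELF3 from -0.045 to 0.096 with PIF3 over-expression, both against Col-0. In the decoy against cfh1, LUX ran from -0.061 to 0.35 and BOA from -0.15 to 0.43, and against PIF3 over-expression BOA from -0.037 to 0.39 and FKF1 from -0.28 to 0.0072. In PIF3 over-expression against cfh1, ELF3 ran from -0.33 to 0.024, BOA from -0.33 to 0.25, GI from -0.023 to 0.34, ZTL from -0.026 to 0.071 and LKP2 from -0.062 to 0.076.

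Replicate numbers from the titles gave no clear pairing of the samples. Of 18 same-numbered pairs, 2 correlated over 0.1 (range -0.36 to 0.27), and a library matched its own number best in 8 of 36 checks. A pair of unlike numbers, cfh1 replicate 3 and decoy replicate 2, stood at 0.37. The values were centred within each group of 3 libraries, so these correlations cannot exclude a weak batch shared by some libraries. With the replicate block, PIF3 over-expression against Col-0 had 2 genes higher, with GI passing (0.43), the decoy against cfh1 had 2 higher, and PIF3 over-expression against cfh1 had 0 lower. CHE then did not pass against cfh1 in the decoy (0.48) or in PIF3 over-expression (-0.62).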

Other observations

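Ratios of estimated counts within a library need no scaling between libraries, and these were chosen after the values were seen and have no test. The ratio of GI to ELF4 was 0.956, 0.934 and 0.950 in Col-0, 1.39, 1.20 and 1.19 in cfh1, 4.95, 3.25 and 2.97 in the decoy and 1.89, 1.34 and 1.63 with PIF3 over-expression. All 9 libraries of the 3 lines lay above all Col-0 libraries, with the decoy above the rest. The ratio of ELF3 to LUX was 1.42, 1.49 and 1.40 in Col-0, 1.53, 1.54 and 1.59 in cfh1, 0.540, 1.12 and 0.975 in the decoy and 1.60, 1.59 and 1.78 with PIF3 over-expression. Here the decoy lay below Col-0 and the other lines above it. The ratio of ZTL to LKP2 overlapped between all 4 genotypes and ran from 2.20 to 2.97.

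Decoy replicate 1 was the highest of its group for 7 of the 9 genes and the lowest for 2. How often each library was the highest over all genes was not counted, so such counts are not read as particular to the 9. Decoy replicate 1 also had the lowest LHY of the 12, at 126.7 CPM against 173.0 and 192.9 in the other decoy libraries, and PRR9 at 0.575 against 2.20 and 5.34. PIF3 over-expression replicate 1 stood out less: it was the highest of its group for 4 of the 9 genes, among them GI and FKF1, and the lowest for 2. Replicates 2 and 3 of that group were the highest for 3 and 2 genes and the lowest for 4 and 3. Replicate 1 had the lowest CCA1 of the group (108.7 CPM against 136.7 and 128.8) and the lowest LHY (162.4 against 232.0 and 200.6). Its PRR5 stood at 15.3 against 6.44 and 8.01. The part of these library differences in the results was not tested.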
